A study of Mus musculus with 12 samples.

Results

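Interferon and antiviral genes were followed in cells of the mouse embryonic stem (ES) cell line K3 with and without the orphan nuclear receptor ERRb, encoded by Esrrb. The set was 39 genes of the interferon system. It held sensors of viral nucleic acid, the type I interferon receptor, STAT and IRF transcription factors, and effectors. A gene was read from the probe set annotated to its symbol alone, and where several were listed, from the one with the highest mean over the 12 arrays. This gave a value for 37 of the 39 genes, out of 22180 genes read in the same way. Gbp2, a guanylate-binding GTPase, was listed only on a probe set shared with another gene, and Ifi44 on none, so neither was analysed here.

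The labels gave 3 groups of 4 arrays. Esrrb was left intact in WT/mock cells and knocked out in KO/mock cells, and KO/ERRb-wt denotes knockout cells that were given a lentivirus coding for ERRb. The labels do not say what the mock cells received, so the virus is stated for the KO/ERRb-wt cells alone, and the virus and the ERRb it carried cannot be told apart. Each group was 2 clones (5-2 and 5-5 for WT/mock, 8-3 and 8-4 for KO/mock, 12-1 and 12-3 for KO/ERRb-wt) with 2 arrays per clone, so a difference between groups also holds whatever sets those clones apart. All cells were kept in serum-free N2B27 medium with LIF and the inhibitors CH99021 (against GSK3) and PD0325901 (against MEK). All of them, controls included, then spent 3 days with the inhibitors and doxycycline, with no LIF named for those days, before total RNA was taken.

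In the interferon system, sensors of viral RNA signal to the factor Irf3, the helicase Ifih1 through the adaptor Mavs and Tlr3 through an adaptor of its own, and Irf3 starts transcription of interferon genes. Secreted interferon binds the Ifnar1 and Ifnar2 receptor pair, and the JAK kinases on it activate STAT proteins. Stat2 and Irf9 are subunits of the complex that binds the interferon-stimulated response element (ISRE) of target genes, while the GAS element answers chiefly to interferon gamma. ES cells are known for a weak interferon response and for steady expression of some antiviral proteins without it.

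The deposited log2 values had array medians between 5.00 and 5.07, and the 2 arrays of a clone correlated at 0.9907 to 0.9932 over all probe sets. The probe set of Esrrb, the targeted gene, went against the labels. It read 7.38, 7.38, 7.39 and 7.38 under the WT/mock label, 7.48, 8.00, 7.74 and 7.41 under KO/mock, and 6.99, 6.76, 6.50 and 6.68 under KO/ERRb-wt. Neither the site of the knockout lesion nor the viral insert is described by the labels, so the probe set need not overlap them and may check neither label. Directions below are therefore differences between labelled arrays. Of 10 ES cell markers, 9 had a mean above log2 6. All 9 measured fibroblast markers and 7 of 9 blood cell and macrophage markers were below it, with the leukocyte gene Ptprc at 3.20 to 3.70. The other 2, Cd68 (6.95 to 7.88) and Cd3e (6.61 to 7.08), were above it. So were 4 of 9 measured trophoblast markers, and 5 of 10 primitive endoderm markers were at or above it, with Sparc at a mean of 10.13.

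The promoters of 6 members are shown because they carry letters of the elements through which interferon acts and belong to genes at the ends of the pattern: Isg15, which stayed low in every group, Irgm1 with the largest difference of all members, its relative Irgm2, Stat2 and B2m, which were lower, and Irf1, which was higher. Each line gives the 250 bases before the annotated start, 5′ to 3′ on the gene's strand, from RefSeq's annotation of GRCm38.p6. Capitals mark matches on either strand to the ISRE core (GAAA, any 2 bases, then GAAA again) or the GAS element (TTCNNNGAA). Isg15 (chr4:156200819-156201068, minus strand) and Irgm1 (chr11:48871421-48871670, minus strand) hold overlapping ISRE matches. Irgm2 (chr11:58214727-58214976, plus strand) holds a GAS match followed by an ISRE match. Stat2 (chr10:128270248-128270497, plus strand) and B2m (chr2:122147437-122147686, plus strand) hold 1 ISRE match each. Irf1 (chr11:53769764-53770013, plus strand), for which the first of 2 listed starts is shown, holds a GAS match.
Isg15: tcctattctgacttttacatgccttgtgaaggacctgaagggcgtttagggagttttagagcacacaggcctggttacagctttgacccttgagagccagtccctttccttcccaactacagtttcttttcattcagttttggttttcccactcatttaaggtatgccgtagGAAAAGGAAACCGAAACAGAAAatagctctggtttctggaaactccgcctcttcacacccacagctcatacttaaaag
Irgm1: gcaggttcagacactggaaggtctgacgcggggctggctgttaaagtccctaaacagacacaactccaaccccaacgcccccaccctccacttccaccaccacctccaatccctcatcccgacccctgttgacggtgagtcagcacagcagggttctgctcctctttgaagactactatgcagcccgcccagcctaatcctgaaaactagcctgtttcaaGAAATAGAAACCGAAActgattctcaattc
Irgm2: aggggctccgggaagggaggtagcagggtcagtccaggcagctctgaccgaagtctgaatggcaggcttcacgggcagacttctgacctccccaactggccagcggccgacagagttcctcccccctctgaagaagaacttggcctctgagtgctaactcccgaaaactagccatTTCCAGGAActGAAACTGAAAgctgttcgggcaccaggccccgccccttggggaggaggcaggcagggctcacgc
Stat2: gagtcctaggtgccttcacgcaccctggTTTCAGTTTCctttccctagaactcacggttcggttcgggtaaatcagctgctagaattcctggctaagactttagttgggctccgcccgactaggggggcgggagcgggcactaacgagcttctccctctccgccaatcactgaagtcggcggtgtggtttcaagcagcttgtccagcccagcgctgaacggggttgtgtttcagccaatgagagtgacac
B2m: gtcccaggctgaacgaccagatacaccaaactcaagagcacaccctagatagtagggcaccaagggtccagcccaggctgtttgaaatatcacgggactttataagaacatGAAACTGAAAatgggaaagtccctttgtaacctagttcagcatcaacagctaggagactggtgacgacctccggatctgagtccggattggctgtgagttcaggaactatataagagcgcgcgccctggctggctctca
Irf1: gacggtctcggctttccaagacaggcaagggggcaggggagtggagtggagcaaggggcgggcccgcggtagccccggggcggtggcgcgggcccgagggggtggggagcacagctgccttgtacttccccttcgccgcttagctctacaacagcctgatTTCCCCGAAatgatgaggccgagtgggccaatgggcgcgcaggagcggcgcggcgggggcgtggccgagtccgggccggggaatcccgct

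Over windows from 250 bases before to 50 after the start, the ISRE letters occurred in 17 of 40 member windows (42.5%) against 3.44% of all 32851 windows, and the GAS letters in 12 (30.0%) against 8.3%. The windows belonged to 34 of the 39 members, and overlapping matches of both elements were counted for each. The extended ERR element TCAAGGTCA, searched on both strands, occurred in 0.423% of all windows and in 0 of the 40. Members were picked as interferon genes, so the ISRE share describes the choice. Among members called between KO/ERRb-wt and WT/mock, 1 of the 6 higher and 3 of the 5 lower members with a window held an ISRE match, and among those not called 12 of 21 did. A match of letters is a description and does not show that a factor binds there.

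A mean of log2 6 over the 12 arrays was taken as the line between higher and lower signal. It is a point on the deposited scale and no detection limit, and the levels of different probe sets are not comparable. By it, 18 of the 37 members were above and 19 below. Above the line were the adaptor Mavs (mean 9.01), both receptor chains Ifnar1 (9.19) and Ifnar2 (7.04), and the factors Stat2 (8.67), Irf1 (6.84), Irf3 (7.21) and Irf9 (7.52). So were the membrane proteins Bst2 (10.95), Ifitm1 (6.25), Ifitm2 (8.81) and Ifitm3 (10.75), which hold back virus budding or entry, and the ubiquitin ligase Trim25 (9.35). The effectors Zc3hav1 (9.08), Eif2ak2 (8.12), Adar (8.34) and Parp12 (7.12), the interferon-induced protein Ifi35 (6.28) and B2m (8.69) completed the 18.

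Below the line lay the 3 sensor genes, all 6 measured GTPases and most members that are known chiefly as products of an interferon response. The sensors were Ifih1 (mean 3.76), Dhx58 (4.72) and Tlr3 (3.23). The factors Irf2 (4.38) and Irf7 (4.32), the latter an amplifier of interferon transcription, were also below. Ifit1 (4.26), Ifit2 (3.79), Ifit3 (5.86), Oasl2 (3.85) and Rsad2 (5.05) were below it, as were the ubiquitin-like Isg15 (3.70) and its protease Usp18 (5.00). The GTPases were Irgm1 (5.29), Irgm2 (4.96), Igtp (4.27), Gbp3 (3.37), Mx1 (3.16) and Mx2 (3.27), and Parp14 (4.95) was the last. Single array values of these 19 ran from 2.89 to 6.33. Just inside the line, Ifitm1 was above 6 on 11 of 12 arrays and Ifi35 on all 12. Just outside it, Ifit3 was above 6 on 4 arrays and Irgm1 on 3, all 3 of them labelled KO/ERRb-wt.

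**Figure D1:**
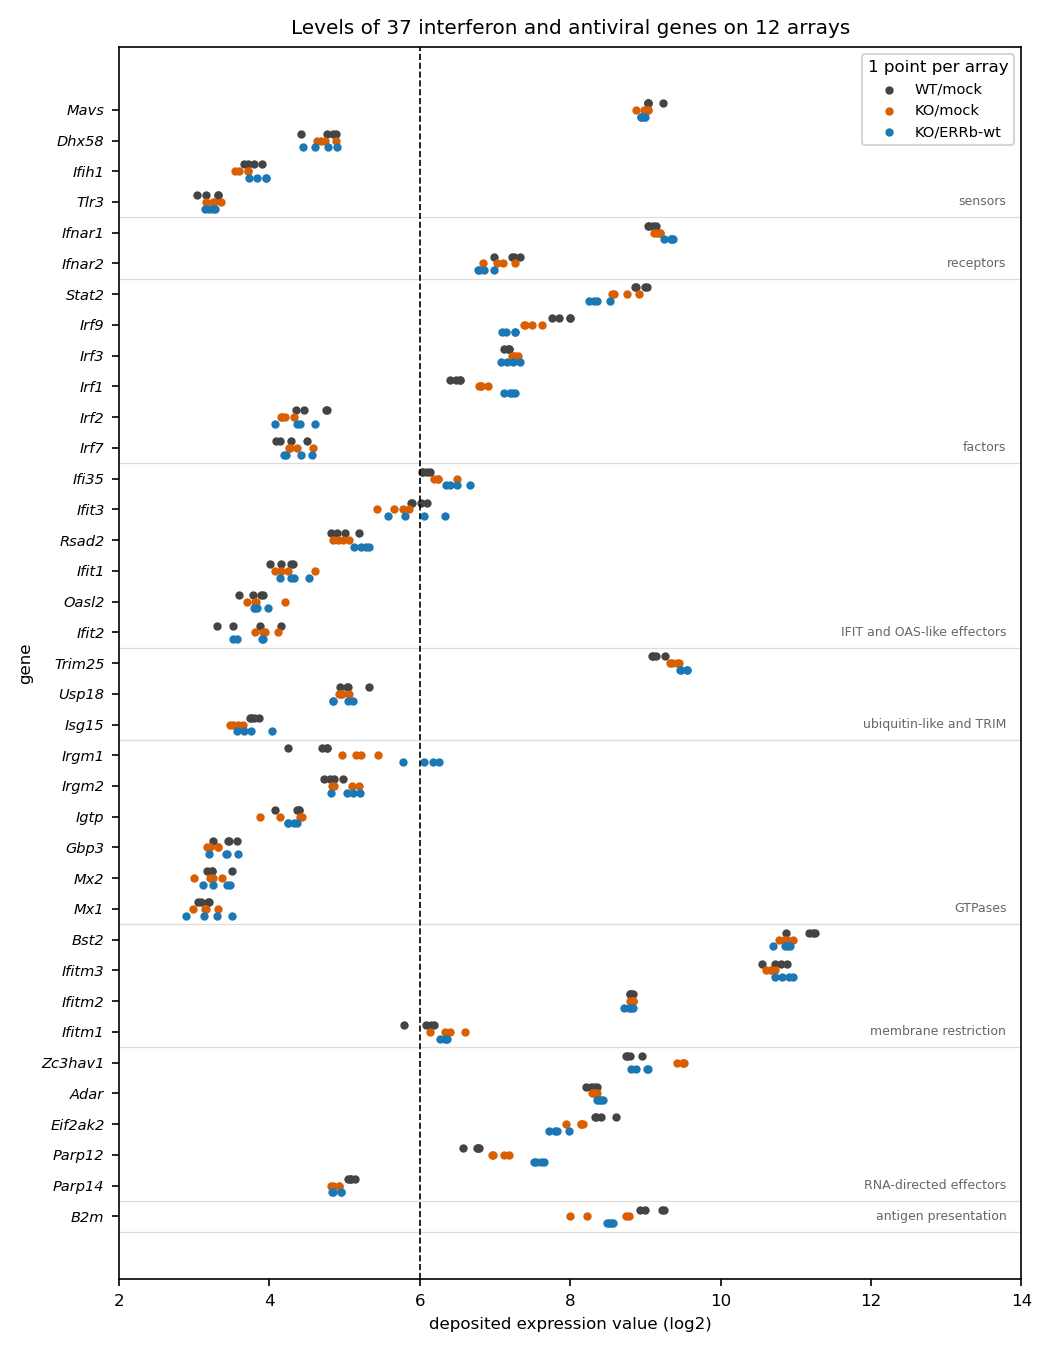
Deposited log2 expression values (horizontal axis) of the 37 measured members, grouped by role, with 1 point per array, coloured by group, and a dashed line at log2 6. The 18 members above the line and the 19 below it keep their side in nearly every array, and Irgm1 moves up to the line under the KO/ERRb-wt label.

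Arrays labelled KO/mock against WT/mock address what the loss of ERRb changed, if the labels hold. Of the 37 members, 6 were called (limma, Benjamini-Hochberg adjusted p under 0.05 over all probe sets): Irf1, Zc3hav1, Trim25 and Parp12 were higher and Irf9 and B2m lower. Over all genes 5.58% were called. All 6 were above log2 6, where 4 of 18 members were higher against 4.19% of genes and 2 of 18 lower against 6.64%. The median log2 difference was 0.00764 for the members and 0.00425 for all genes. With clones averaged first, 0 of the 6 calls held in limma. In that fit 14 members had an unadjusted p under 0.05, beside 5136 of all 41345 probe sets. The count of called members was 2 without clone 5-2, 3 without either of its arrays and 3 without clone 8-3.

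Arrays with the KO/ERRb-wt label against KO/mock address what the ERRb virus changed. Of the members 4 were called: Irf1, Irgm1 and Parp12 were higher and Zc3hav1 was lower. Over all genes 4.40% were called. Among genes above log2 6, 1.77% were higher and 6.53% lower, against 2 and 1 of 18 members. The median difference was 0.0513 for the members and 0.017 for all genes. With clones averaged 0 calls held in limma, with 10 members at an unadjusted p under 0.05, beside 6124 of all 41345 probe sets. Without clone 8-3 the count of called members was 2.

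Arrays labelled KO/ERRb-wt against WT/mock compare knockout cells given the ERRb virus with cells whose Esrrb was left intact and for which no virus is stated. Here 12 members were called, 6 in each direction. Irf1, Ifnar1, Irgm1, Ifi35, Trim25 and Parp12 were higher, and Stat2, Irf9, Ifnar2, Eif2ak2, Parp14 and B2m were lower. Over all genes 20.8% were called. Above log2 6, 5 of 18 members were higher against 14.9% of genes, and 5 were lower against 23.0%. The median difference was 0.0349 for the members and 0.0313 for all genes. Stat2, Irf1, Irgm1, Irf9, Eif2ak2 and Parp12 kept their calls with clones averaged, and the count was 7 without clone 5-2.

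Each group entered 2 of the 3 comparisons, so these counts are not independent of each other. Below log2 6, Irgm1 and Parp14 were the only members called, against 1.46%, 1.34% and 7.46% of the genes below that line in the 3 comparisons. P-values rest on 4 arrays of 2 clones a group, and exact two-sided permutation of 4 against 4 arrays cannot give a p below 0.0286.

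**Figure D2:**
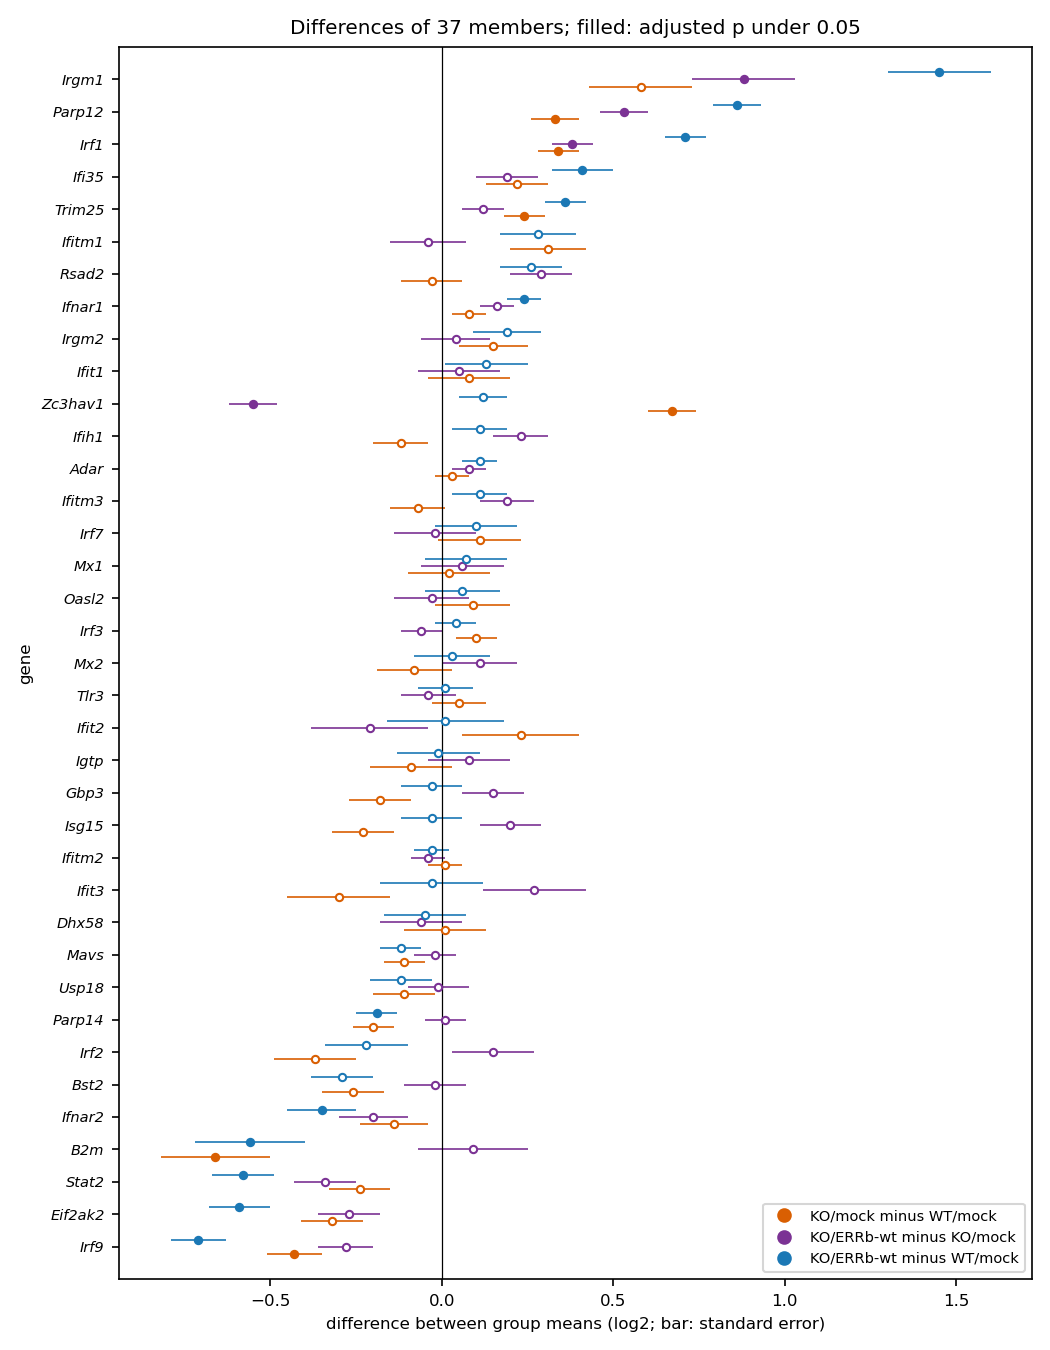
Log2 differences between group means of the 37 members (points, with standard errors as bars) in the 3 comparisons, ordered by KO/ERRb-wt minus WT/mock. Filled points have an adjusted p under 0.05. Irgm1, Parp12 and Irf1 stand at the top and Irf9, Eif2ak2, Stat2 and B2m at the bottom.

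The member sensors Ifih1, Dhx58 and Tlr3 and the adaptor Mavs gave no call in any comparison (limma). Of these 4 genes, 0, 1 and 0 had an unadjusted p under 0.05 in the order above. Over all genes 5.58%, 4.40% and 20.8% were called. Below log2 6, where Ifih1, Dhx58 and Tlr3 lay, the shares were 1.46%, 1.34% and 7.46%. Mavs, the mitochondrial adaptor of the RNA helicases, read 9.03, 9.04, 9.04 and 9.24 under the WT/mock label, 8.87 to 9.04 under KO/mock and 8.94 to 8.99 under KO/ERRb-wt. Ifih1, a helicase that recognises long double-stranded RNA, was at 3.66 to 3.90, 3.54 to 3.72 and 3.73 to 3.95 in the same order. Its 4 arrays labelled KO/ERRb-wt lay above the 4 labelled KO/mock by 0.23 ± 0.08 (SE), which did not pass (limma, adjusted p = 0.145). Tlr3, the endosomal receptor for double-stranded RNA, stayed between 3.04 and 3.35 on all arrays, and the helicase Dhx58 between 4.42 and 4.90. Outside the members, the helicase Ddx58 (mean 9.12) was higher under KO/ERRb-wt than WT/mock by 0.44 ± 0.09 (limma, adjusted p = 0.00428). There the sensor Cgas (mean 4.73) differed by -0.49 ± 0.08 (limma, adjusted p = 0.00106) and its adaptor Sting1 by -0.62 ± 0.11 (adjusted p = 0.00269). Between KO/mock and WT/mock, Cgas differed by -0.32 (limma, adjusted p = 0.0378) and Sting1 by -0.47 (adjusted p = 0.0392). Tlr4 and Tlr7 were not called.

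The receptor chains differed in opposite directions between the arrays labelled KO/ERRb-wt and WT/mock. Ifnar1 read 9.05, 9.04, 9.14 and 9.10 under the WT/mock label, 9.12, 9.16, 9.19 and 9.20 under KO/mock, and 9.37, 9.34, 9.34 and 9.25 under KO/ERRb-wt. The last group lay above both others, and it exceeded WT/mock by 0.24 ± 0.05 (SE; limma, adjusted p = 0.00795). That call ended without clone 5-2 (adjusted p = 0.083) or clone 12-1 (0.0654). Ifnar2 read 7.25, 7.33, 6.98 and 7.23 under the WT/mock label, 7.02, 7.26, 6.84 and 7.11 under KO/mock, and 6.99, 6.85, 6.79 and 6.78 under KO/ERRb-wt. The highest array of the last group overlapped the lowest labelled WT/mock, and the difference was -0.35 ± 0.10 (SE; limma, adjusted p = 0.0378). The Ifnar2 call ended with clones averaged (adjusted p = 0.122), quantile normalization (0.0563) and array weights (0.0576). It also ended without any one of clones 5-2, 12-1 and 12-3 and without either array of clone 5-2 or 12-3, replicate 2 of clone 5-5 or replicate 2 of clone 12-1, with an adjusted p of up to 0.257.

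Among the 6 factors, Irf1 was higher and Stat2 and Irf9 were lower under the KO/ERRb-wt label than under WT/mock, while Irf2, Irf3 and Irf7 were not called. Irf1, a transcriptional activator of the interferon and major histocompatibility genes, read 6.53, 6.40, 6.54 and 6.48 under the WT/mock label. It read 6.81, 6.90, 6.79 and 6.81 under KO/mock and 7.12, 7.22, 7.20 and 7.26 under KO/ERRb-wt. The groups stood at 3 levels with no overlap. The lower step was 0.34 ± 0.06 (SE; limma, adjusted p = 0.00619), the upper 0.38 ± 0.06 (adjusted p = 0.00635) and the whole 0.71 ± 0.06, or 1.64-fold (adjusted p = 1.6e-05). The lower step lost its call without clone 5-2 (adjusted p = 0.0624), and the upper without clone 8-3 (0.0507) or clone 12-3 (0.061).

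Stat2, the STAT subunit specific to type I and type III interferon signalling, read 9.02, 8.88, 9.00 and 8.86 under the WT/mock label. It read 8.76, 8.92, 8.55 and 8.58 under KO/mock and 8.35, 8.31, 8.53 and 8.25 under KO/ERRb-wt. Clone 8-3 reached into the WT/mock range, and the arrays labelled KO/ERRb-wt were below all others. The difference between KO/ERRb-wt and WT/mock was -0.58 ± 0.09 (SE), 1.49-fold (limma, adjusted p = 0.00134), and neither single step passed (-0.24, adjusted p = 0.215, and -0.34, adjusted p = 0.071).

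Irf9, the DNA-binding partner of Stat2, read 7.76, 7.85, 8.00 and 8.00 under the WT/mock label, 7.40, 7.49, 7.38 and 7.62 under KO/mock, and 7.27, 7.27, 7.09 and 7.14 under KO/ERRb-wt. The groups did not overlap. The difference from WT/mock was -0.43 ± 0.08 (SE; limma, adjusted p = 0.0108) for KO/mock and -0.71 ± 0.08 (adjusted p = 0.000144) for KO/ERRb-wt. The first call ended without clone 5-5 (adjusted p = 0.0668) or clone 8-3 (0.0693).

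Irf9 is the only measured member on chromosome 14, whose genes as a whole were lower under the KO/mock and KO/ERRb-wt labels. The 342 genes of that chromosome above log2 6 had a median difference of -0.41 between KO/mock and WT/mock, against 0.03 for the genes of other chromosomes, and 73.7% of them were called lower. Irf9 itself stood -0.02 from that median, and 153 of the 342 genes were lower than it. Between KO/ERRb-wt and WT/mock the median was -0.48, Irf9 stood -0.23 from it, and 83 genes were lower. The lower quartile of the chromosome was -0.70 there, beside -0.71 for Irf9. So the difference of Irf9 between KO/mock and WT/mock was that of a middle gene of its chromosome, and whether the chromosome sets it was not tested.

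Of the other factors, Irf3, the first factor activated by the sensors, stayed at 7.08 to 7.33 on all arrays. Irf2, which can oppose Irf1 at its sites, read 4.35 to 4.77 under the WT/mock label, 4.15 to 4.32 under KO/mock and 4.07 to 4.60 under KO/ERRb-wt. Its first difference was -0.37 ± 0.12 (SE) and did not pass (limma, adjusted p = 0.138). Irf7 lay between 4.09 and 4.58 on all arrays, with a difference of -0.02 between KO/ERRb-wt and KO/mock.

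**Figure D3:**
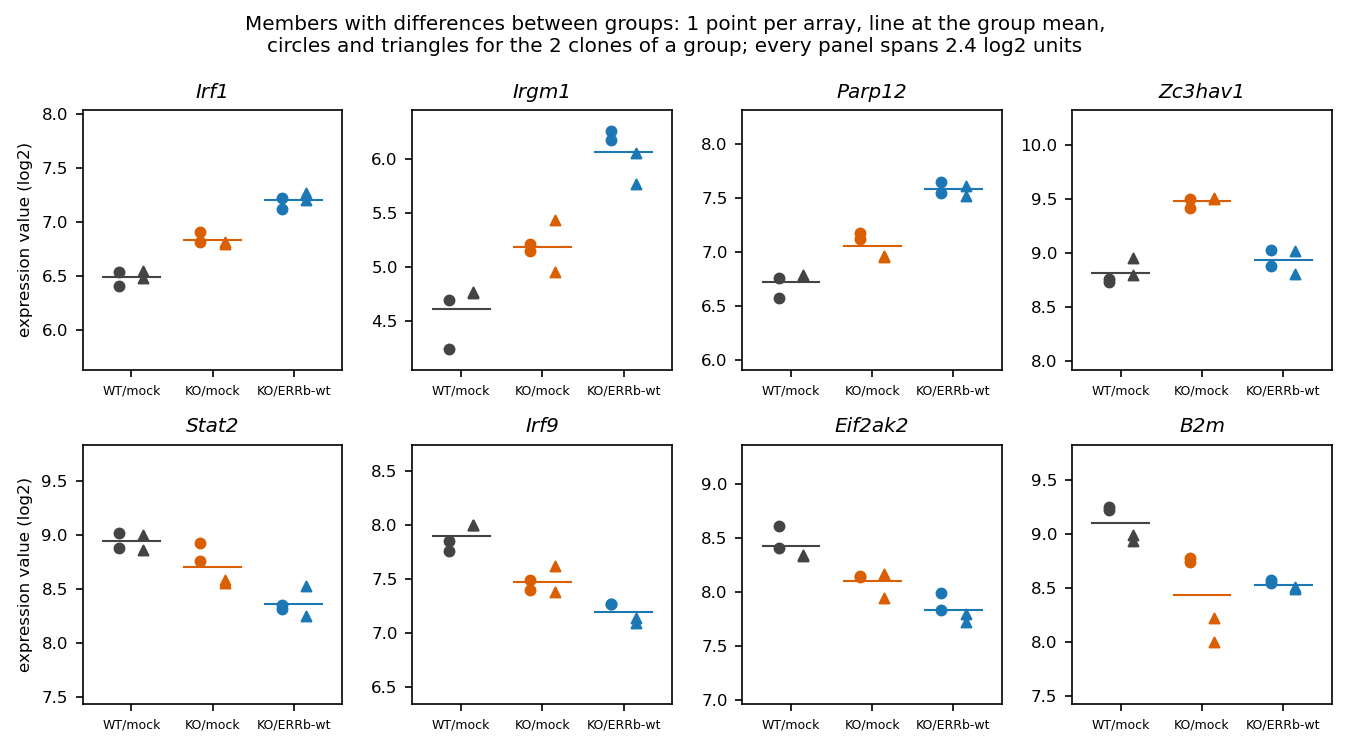
Log2 expression values of 8 members on each array (points), by group, with circles and triangles for the 2 clones of a group and a line at the group mean. Each panel spans the same log2 range. Irf1, Irgm1 and Parp12 step up and Irf9 steps down over the 3 groups with no overlap, Zc3hav1 is high in KO/mock alone, and the KO/mock clones of B2m lie apart.

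Among the effectors, the GTPase Irgm1 had the largest difference of all members. Irgm1 is an immunity-related GTPase that regulates its relatives and autophagy in infected cells. It read 4.70, 4.25, 4.76 and 4.77 under the WT/mock label, 5.22, 5.15, 4.96 and 5.44 under KO/mock, and 6.26, 6.18, 5.77 and 6.06 under KO/ERRb-wt. The 3 groups did not overlap. The step between KO/mock and WT/mock was 0.58 ± 0.15 (SE) and did not pass (limma, adjusted p = 0.0525), whereas that between KO/ERRb-wt and KO/mock was 0.88 ± 0.15 (adjusted p = 0.0102). The second call ended without clone 8-3 (adjusted p = 0.0989) or clone 12-1 (0.0644). The arrays labelled KO/ERRb-wt exceeded WT/mock by 1.45 ± 0.15, or 2.74-fold (adjusted p = 7.1e-05). None of the other GTPases was called in any comparison. All of them lay below log2 6, where 1.46%, 1.34% and 7.46% of genes were called, so their lack of calls is near that share. Irgm2, whose promoter above also holds an ISRE match, read 4.73 to 4.98 under the WT/mock label, 4.83 to 5.19 under KO/mock and 4.82 to 5.20 under KO/ERRb-wt. Igtp, Gbp3, Mx1 and Mx2 differed by -0.03 to 0.07 between KO/ERRb-wt and WT/mock.

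Of the 5 effectors directed at RNA, 2, 2 and 3 were called in the 3 comparisons, beside 5.58%, 4.40% and 20.8% of all genes. Parp12, an ADP-ribosyltransferase with antiviral activity, read 6.76, 6.58, 6.78 and 6.79 under the WT/mock label, 7.18, 7.12, 6.97 and 6.96 under KO/mock, and 7.65, 7.55, 7.52 and 7.61 under KO/ERRb-wt. It rose in 2 steps without overlap, by 0.33 ± 0.07 (SE; limma, adjusted p = 0.0262) and 0.53 ± 0.07 (adjusted p = 0.00346), and by 0.86 ± 0.07 or 1.81-fold in all (adjusted p = 2.2e-05). The first step lost its call without clone 5-2 or 8-3 or any one of their 4 arrays, with an adjusted p of up to 0.194, and when only the 2 groups were fitted (0.0699).

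Zc3hav1, the zinc-finger protein that binds CpG-rich viral RNA, followed another pattern. It read 8.74, 8.76, 8.96 and 8.80 under the WT/mock label, 9.50, 9.42, 9.50 and 9.51 under KO/mock, and 8.88, 9.03, 8.81 and 9.02 under KO/ERRb-wt. All 4 arrays labelled KO/mock were above the rest, and the other groups overlapped. The difference was 0.67 ± 0.07 (SE) for KO/mock against WT/mock, 1.59-fold (limma, adjusted p = 0.000447), and -0.55 ± 0.07 for KO/ERRb-wt against KO/mock (adjusted p = 0.00283). Between KO/ERRb-wt and WT/mock it was 0.12, with a 95% confidence interval of -0.03 to 0.28 (adjusted p = 0.299). Both calls held without each array and each clone and ended with clones averaged (adjusted p = 0.0807 and 0.143). Of all members, Zc3hav1 alone was called in both single steps with opposite signs. Zc3hav1 and Parp12 both lie on chromosome 6, whose genes above log2 6 had medians of 0.03, -0.04 and -0.02 in the 3 comparisons.

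Eif2ak2, the kinase PKR that halts translation on double-stranded RNA, read 8.61, 8.41, 8.33 and 8.34 under the WT/mock label. It read 8.14, 8.15, 7.95 and 8.17 under KO/mock and 7.83, 7.99, 7.72 and 7.80 under KO/ERRb-wt. The arrays labelled WT/mock were above all others. Only the difference between KO/ERRb-wt and WT/mock passed, at -0.59 ± 0.09 (SE), 1.50-fold (limma, adjusted p = 0.000726). The steps were -0.32 (adjusted p = 0.0654) and -0.27 (adjusted p = 0.114). Adar, which edits double-stranded RNA, stayed at 8.21 to 8.44 and was not called. Parp14 read 5.09, 5.07, 5.04 and 5.14 under the WT/mock label, 4.82, 4.93, 4.93 and 4.84 under KO/mock, and 4.84, 4.95, 4.95 and 4.83 under KO/ERRb-wt. Its arrays labelled WT/mock were above the rest, by a small amount. The difference of -0.19 ± 0.06 (SE) between KO/ERRb-wt and WT/mock was near the threshold (limma, adjusted p = 0.0407). The Parp14 call ended under the replicate block (adjusted p = 0.0593), when only the 2 groups were fitted (0.0686) and with a trended, robust prior (0.101). It also ended without any one clone other than 8-3 and without any one of 7 arrays, namely all 4 labelled WT/mock, replicate 2 of clone 8-4, replicate 1 of clone 12-1 and replicate 2 of clone 12-3, with an adjusted p of up to 0.145.

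Trim25, a ligase that attaches ubiquitin or Isg15 and acts on RNA sensors, read 9.14, 9.10, 9.09 and 9.26 under the WT/mock label. It read 9.33, 9.35, 9.42 and 9.45 under KO/mock and 9.46, 9.56, 9.47 and 9.55 under KO/ERRb-wt. The groups did not overlap, and Trim25 rose by 0.36 ± 0.06 (SE) from WT/mock to KO/ERRb-wt (limma, adjusted p = 0.00168). The first step, KO/mock against WT/mock, was 0.24 ± 0.06 (adjusted p = 0.0473). That smaller call ended with the replicate block (adjusted p = 0.0551), quantile normalization, array weights or only the 2 groups fitted, without any one of 11 arrays (all but replicate 2 of clone 5-5) and without any one clone, with an adjusted p of up to 0.316. Ifi35 read 6.10, 6.04, 6.03 and 6.13 under the WT/mock label, 6.50, 6.24, 6.19 and 6.24 under KO/mock, and 6.49, 6.40, 6.35 and 6.67 under KO/ERRb-wt. Its arrays labelled WT/mock were below all others, and the difference to KO/ERRb-wt was 0.41 ± 0.09 (SE; limma, adjusted p = 0.00739). Without clone 5-2 it did not pass (adjusted p = 0.0569). A second Ifi35 probe set, with a lower mean, differed by 0.15 ± 0.10 (SE) and was not called (limma, adjusted p = 0.345).

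The 4 membrane restriction genes were all above log2 6 and none was called in any comparison, with 2, 1 and 2 of them at an unadjusted p under 0.05 (limma). Among genes above log2 6, 4.19%, 1.77% and 14.9% were called higher and 6.64%, 6.53% and 23.0% lower. With only 4 genes, the lack of calls is not read as a result about them. Bst2, the tetherin that keeps budding virus at the cell surface, read 10.87 to 11.26 under the WT/mock label, 10.78 to 10.96 under KO/mock and 10.70 to 10.93 under KO/ERRb-wt. Its difference between KO/ERRb-wt and WT/mock was -0.29 ± 0.09 (SE; limma, adjusted p = 0.0558). Ifitm3, which blocks fusion of entering virus, stayed at 10.55 to 10.96 on all arrays and Ifitm2 at 8.72 to 8.84. Ifitm1 read 5.79 to 6.19, 6.13 to 6.60 and 6.27 to 6.36 in the order of the groups.

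B2m, the light chain of class I major histocompatibility molecules, was lower under the KO/mock and KO/ERRb-wt labels than under WT/mock. It read 9.22, 9.25, 8.93 and 8.99 under the WT/mock label, 8.74 and 8.78 in clone 8-3, 8.00 and 8.22 in clone 8-4, and 8.57, 8.54, 8.49 and 8.51 under KO/ERRb-wt. The arrays labelled WT/mock were above all others, and the KO/mock clones lay on either side of the KO/ERRb-wt arrays. The difference was -0.66 ± 0.16 (SE) for KO/mock (limma, adjusted p = 0.0397) and -0.56 ± 0.16 for KO/ERRb-wt (adjusted p = 0.0306). Clone 8-4 differed from clone 8-3 by -0.65 in a fit of the 6 clones (limma, adjusted p = 0.185), beside the -0.66 between labels. No member was called between clones of one label in that fit, with 2, 4 and 1 members at an unadjusted p under 0.05 in WT/mock, KO/mock and KO/ERRb-wt. Without clone 8-4 the first difference was -0.33 (adjusted p = 0.185). That first call also ended without any one of 10 arrays (all but those of clone 8-3), without any one clone other than 8-3, under the replicate block (adjusted p = 0.0577), with array weights and with only the 2 groups fitted, with an adjusted p of up to 0.328. The second ended without clone 5-2, 12-1 or 12-3 or any one of their 6 arrays, with an adjusted p of up to 0.242.

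A group of 12 members known as direct products of virus or interferon stimulation was put together with their values already seen: Ifit1, Ifit2, Ifit3, Isg15, Oasl2, Mx1, Mx2, Rsad2, Usp18, Irf7, Ifih1 and Dhx58. None of the 12 was called in any comparison (limma), and 1, 2 and 1 had an unadjusted p under 0.05. All 13 members called in at least 1 comparison were left outside the group, so its 0 calls follow from the choice. The values and bounds below describe these 12 alone. All 12 were below log2 6, where 1.46%, 1.34% and 7.46% of genes were called, so 0 of 12 is near the share of such genes. Between KO/ERRb-wt and KO/mock they differed by -0.21 to 0.29, and the highest upper bound of their 95% confidence intervals was 0.59, or 1.50-fold, for Ifit3. Between KO/ERRb-wt and WT/mock they differed by -0.12 to 0.26, with a highest bound of 0.45, or 1.36-fold, for Rsad2. Isg15 read 3.86, 3.75, 3.74 and 3.79 under the WT/mock label, 3.48, 3.51, 3.65 and 3.58 under KO/mock, and 4.04, 3.66, 3.75 and 3.57 under KO/ERRb-wt. Its KO/ERRb-wt arrays overlapped both other groups. Rsad2, the antiviral enzyme viperin, read 4.82 to 5.19, 4.84 to 5.06 and 5.13 to 5.32 in the order of the groups. Its KO/ERRb-wt arrays were above those labelled KO/mock by 0.29 ± 0.09 (SE), which did not pass (limma, adjusted p = 0.0925). Arrays compress differences at low signal, and how far they did so for these probe sets was not tested.

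The interferon genes themselves gave no call. Of 19 measured ligand genes 0 were called in any comparison (limma), with 0, 3 and 2 at an unadjusted p under 0.05, and their differences ran from -0.17 to 0.40 between KO/ERRb-wt and KO/mock. Of the 19, 15 had a mean below log2 6, where few genes were called, as given above. The 4 above it were the interferon alpha genes Ifna1 (7.46 to 7.91 over the 12 arrays) and Ifna4 (7.33 to 7.71) and the interferon lambda genes Ifnl2 (6.38 to 7.06) and Ifnl3 (6.10 to 6.67). Ifnb1, the first interferon made after virus sensing in many cells, read 3.38 to 3.68 under the WT/mock label, 3.32 to 3.44 under KO/mock and 3.44 to 3.53 under KO/ERRb-wt.

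Of 82 other measured genes of the interferon pathway, 2 were higher and 9 lower under the KO/mock label than under WT/mock, beside 5.58% of all genes called. The corresponding counts were 1 and 3 between KO/ERRb-wt and KO/mock, beside 4.40%, then 6 and 12 between KO/ERRb-wt and WT/mock, beside 20.8%. The 4 and 18 genes called in the last 2 comparisons were near the shares over all genes. Their median differences were 0.00709, 0.0386 and 0.0235. Jak1, the kinase on the receptor, was lower in each comparison: it read 9.30, 9.15, 9.16 and 8.99 under the WT/mock label, 8.74, 8.86, 8.77 and 8.74 under KO/mock, and 8.43, 8.52, 8.55 and 8.30 under KO/ERRb-wt. The groups did not overlap, and the whole difference was -0.70 ± 0.08 (SE; limma, adjusted p = 0.000148). Shisa5 was lower in each comparison as well, with a difference of -0.84 ± 0.09 between KO/ERRb-wt and WT/mock (limma, adjusted p = 0.000115). Ifngr2, a chain of the interferon gamma receptor, was higher there by 0.44 ± 0.06 (adjusted p = 0.000772). Between KO/ERRb-wt and KO/mock the protease gene Usp25 was lower, at -0.44 ± 0.10 (limma, adjusted p = 0.04), and Tlr9, the receptor for CpG DNA, was higher by 0.46 ± 0.11 (adjusted p = 0.0484).

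Single genes of antigen processing and presentation among these 82 were lower under the KO/mock label, and others were not called. Tapbp, which loads peptide onto class I molecules, differed from WT/mock by -0.41 ± 0.08 (SE; limma, adjusted p = 0.0108), the class I heavy chain H2-K1 by -0.63 ± 0.14 (adjusted p = 0.0277) and Ifi30, a thiol reductase of antigen processing, by -0.56 ± 0.10 (adjusted p = 0.0119). The peptide transporter chain Tap1 differed by -0.48 ± 0.11 (adjusted p = 0.0292) and the proteasome activator subunit Psme1 by -0.34 ± 0.08 (adjusted p = 0.0288). The other transporter chain Tap2 was not called, at -0.01, nor were the activator subunit Psme2, at -0.03, and the immunoproteasome subunits Psmb8 at 0.04, Psmb10 at 0.09 and Psmb9 at -0.28 (adjusted p = 0.19). Psme1 and Psme2 both lie on chromosome 14, whose median difference is given above. H2-K1 read 6.52, 6.75, 6.73 and 6.36 under the WT/mock label, 5.93, 6.14, 5.77 and 5.99 under KO/mock, and 6.13, 5.99, 5.48 and 5.89 under KO/ERRb-wt. As for B2m, the arrays labelled WT/mock were above all others. Against WT/mock the arrays labelled KO/ERRb-wt differed by -0.72 ± 0.14 for H2-K1 (limma, adjusted p = 0.00447), -0.73 ± 0.10 for Ifi30 (adjusted p = 0.000707) and -0.25 ± 0.08 for Tapbp (adjusted p = 0.0442). Tap1 differed there by -0.37 ± 0.11 (limma, adjusted p = 0.0371) and Psme1 by -0.28 ± 0.08 (adjusted p = 0.0304). Tap2, Psme2, Psmb8, Psmb9 and Psmb10 were not called there either.

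By position, Irf1, Irgm1, Ifi35 and Trim25, which are 4 of the 6 members higher under the KO/ERRb-wt label than under WT/mock, lie on chromosome 11, which holds 7 measured members. The 795 genes of chromosome 11 above log2 6 had a median difference of 0.02 in that comparison, and 17.2% were called higher. Of the 7 members, Irgm1, Irgm2, Igtp and Dhx58 were below log2 6 and so are not among the 795.

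**Figure D4:**
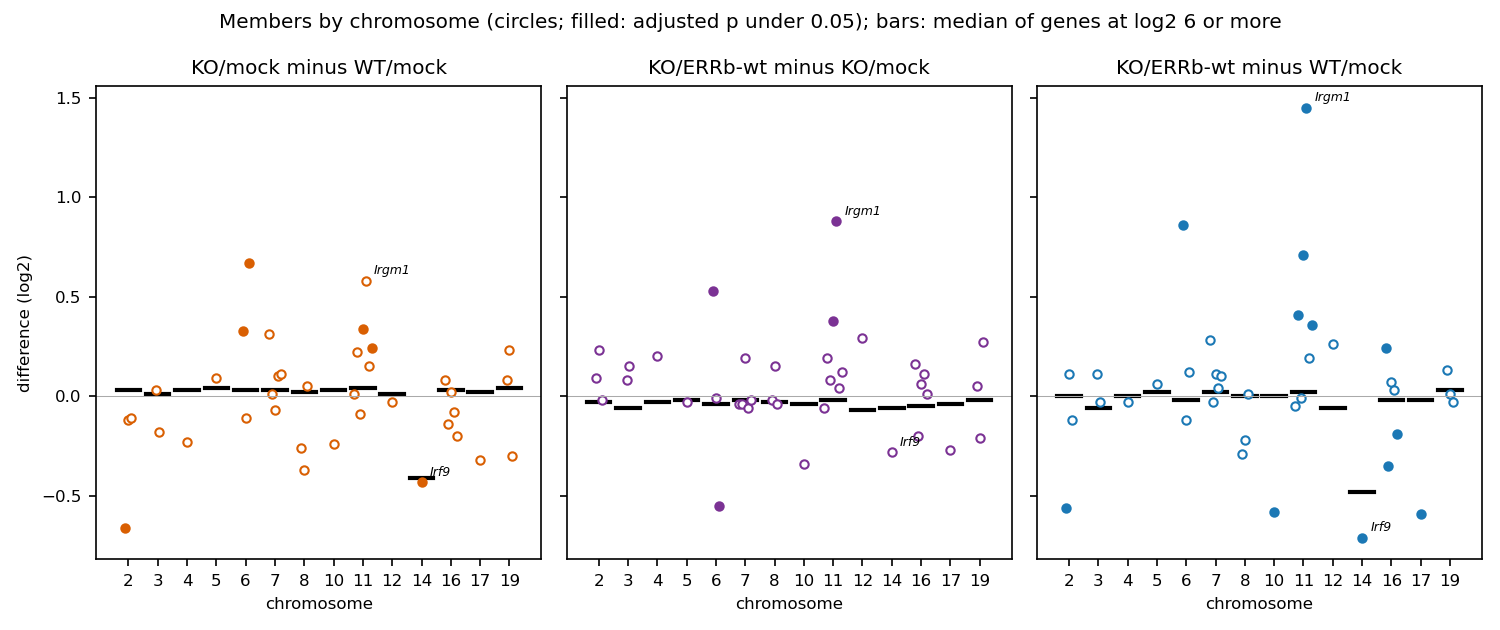
Log2 differences of the measured members by chromosome in the 3 comparisons (circles, filled at an adjusted p under 0.05), with a bar at the median of that chromosome's genes above log2 6. In KO/mock minus WT/mock Irf9 sits on the lowered bar of chromosome 14 (-0.41), and Irgm1 lies above the bar of chromosome 11 in each panel.

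The mean level of the 9 fibroblast markers was 4.56 to 4.65 under the WT/mock label, 4.57 to 4.63 under KO/mock and 4.66 to 4.74 under KO/ERRb-wt, so the last group was slightly higher. The fibroblast gene Thy1 was the 1 marker of that list called, at 0.35 ± 0.10 (SE) between KO/ERRb-wt and WT/mock (limma, adjusted p = 0.0318). The mean of the 9 blood cell and macrophage markers was 4.85 to 4.97, 4.76 to 4.95 and 4.85 to 4.96 in the same order. Of these Cd68 alone was called, at -0.46 between KO/ERRb-wt and WT/mock (limma, adjusted p = 0.02). The 9 trophoblast markers had means of 5.43 to 5.63, 5.63 to 5.74 and 5.69 to 5.80. Of them the trophectoderm factor Cdx2 alone was called, higher by 0.54 between KO/ERRb-wt and WT/mock (limma, adjusted p = 0.0221). The 10 primitive endoderm markers had means of 5.94 to 6.09, 5.96 to 6.09 and 6.01 to 6.05. They gave 1 higher and 1 lower call between KO/mock and WT/mock, 2 and 2 between KO/ERRb-wt and KO/mock, and 0 and 1 between KO/ERRb-wt and WT/mock. Among them the laminin chain Lama1 differed by 0.58 between KO/mock and WT/mock (limma, adjusted p = 0.00693) and by -0.66 between KO/ERRb-wt and KO/mock (adjusted p = 0.00633), the same signs as Zc3hav1. The endoderm factor Gata4 differed by -0.51 between KO/mock and WT/mock (limma, adjusted p = 0.0119) and by -0.56 between KO/ERRb-wt and WT/mock (adjusted p = 0.00223). Gata4 lies on chromosome 14, whose genes above log2 6 had medians of -0.41 and -0.48 in these comparisons. Of the 10 ES cell markers 2, 4 and 5 were called, all lower. Among genes above log2 6, where 9 of the 10 lay, 6.64%, 6.53% and 23.0% were called lower. The mean of the 10 ES cell markers was 10.04 to 10.12, 9.98 to 10.02 and 9.85 to 9.92 in the order of the groups. The part of these shifts in the members' differences was not tested. In bulk RNA, fewer cells that express a gene and less of its RNA per cell cannot be told apart.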

How the data were processed

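RNA from 12 samples was hybridised to 1 mouse whole-transcript array each. The deposited table holds log2 expression values of 41345 probe sets. The submitters' processing notes name RMA and Affymetrix Expression Console, with no versions. RMA gives all arrays the same distribution of probe intensities before these are summarised into probe sets, which hides a shift common to most genes. The values come without detection calls. Related genes such as those of the Ifit, Ifitm and Mx families may share probe signal, which was not tested. The platform annotation listed 1 symbol for 23521 probe sets, several for 1814 and none for 16010, and it can be old.

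All 12 arrays entered 1 limma fit of the 3 groups (limma 3.58.1, statmod 1.5.0, R 4.3.3) in which clone was a random block (correlation 0.0286), with Benjamini-Hochberg adjustment over all probe sets and calls at an adjusted p under 0.05. Tests were two-sided. P-values measure the spread between these arrays; the paired arrays of a clone are biological replicates per the labels. For arrays, their number limits the precision. The fit was run on simulated data with independent noise for each array and no clone effect, so that run did not test the clone block.

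All members were named by level, and in full where called, or where the 4 arrays of one group all lay above another's with a log2 difference of at least 0.5. Of the other pathway genes, up to 4 called genes per comparison with the smallest adjusted p were named. Members and lists were chosen with earlier results of these data known. Other genes named singly and the group of 12 induced members were chosen after their values were seen. Those genes were ligands, cell markers, Ddx58, Cgas, Sting1, Tlr4, Tlr7, Tap1, Tap2, Psme1, Psme2, Psmb8, Psmb9 and Psmb10. Alternatives were no clone block, clone averages, a replicate block, only the 2 groups compared, quantile normalization, median centring, dim probe sets left out, array weights, a trended robust prior, the mean of a gene's probe sets, and leaving out each array and each clone.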

Additional observations from a re-analysis of the deposited data

Results flagged for a closer look

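In 6 of 111 groups of 4 arrays, 1 array stood apart from the other 3 by a share of the group's range above Dixon's 95% critical value; chance alone gives about 1 such group in 20. Among the arrays labelled WT/mock, Mavs read 9.24 in clone 5-5 replicate 2 against 9.03 to 9.04. Igtp read 4.07 in clone 5-5 replicate 1 against 4.36 to 4.39. In clone 5-2 replicate 2, Irgm1 read 4.25 against 4.70 to 4.77 and Parp12 read 6.58 against 6.76 to 6.79. Among those labelled KO/mock, Eif2ak2 read 7.95 in clone 8-4 replicate 1 against 8.14 to 8.17. Among those labelled KO/ERRb-wt, Oasl2 read 3.98 in clone 12-3 replicate 1 against 3.80 to 3.83.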

How the results depend on the processing

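None of the 22 calls of members changed direction under any alternative. With clones averaged first, 16 of the 22 calls ended: in the order KO/mock minus WT/mock, KO/ERRb-wt minus KO/mock and KO/ERRb-wt minus WT/mock, the members called fell to 0, 0 and 6 and the probe sets called from 1602, 1329 and 6460 to 10, 0 and 2251, with 5136, 6124 and 10012 at an unadjusted p under 0.05 (limma). This fit compares 2 clones with 2. With only the 2 groups compared, 3 members were called for KO/mock against WT/mock, and 777 probe sets between KO/ERRb-wt and KO/mock. Leaving out single arrays or clones gave 2 to 6, 2 to 5 and 7 to 13 members in the 3 comparisons, and 531 to 1843, 145 to 1438 and 3245 to 6526 probe sets. The lowest counts of probe sets came without clone 5-2, clone 8-3 and clone 5-2. Quantile normalization called 3 members higher and 3 lower for KO/mock against WT/mock. Between KO/ERRb-wt and KO/mock, 30.4% of called probe sets were higher, 42.2% with quantile normalization and 21.5% with median centring. The groups share replicate numbers, but deviations of same-numbered arrays correlated at 0.0698, 0.0585 and 0.124, so the numbers were not taken as pairs. With the replicate block 4, 4 and 11 members were called, and 1365, 973 and 6011 probe sets. The remaining alternatives, apart from leaving out arrays or clones, ended at most 3 calls each, and leaving out dim probe sets gave no value for 3 of the 22. With 2 clones a group and no detection call, small differences and those of dim probe sets are the least certain. The alternatives were not run for single pathway genes outside the members.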
